A study of Mus musculus with 18 samples.

Results

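The immediate early genes described here are Fos, Fosb, Jun, Junb, Egr1, Egr2, Ier2, Nr4a1, Dusp1 and Zfp36. They are 10 of the 46983 gene names in the 2 count tables of the series, they were listed by name, and all 10 are in both tables. RNA was taken from 2 tissues, bone marrow and adipose, of inbred C57BL/6J males. The genotype field reads Ctrl for the libraries without treatment and Glutamine for the treated ones, and no allele is named. Sample titles read mBMSC for bone marrow and mAT-MSC VAT for adipose, and the descriptions of all libraries carry HFD. Each tissue has 4 libraries labelled HFD without treatment and 5 labelled HFD with glutamine, an amino acid, so glutamine was compared with no glutamine under the same HFD label. The labels used here give no age, diet composition, dose, route or duration. Every library carries a pair of numbers, such as 1_3 or 23_28, which recurs in the other tissue. The labels do not say whether the pairs stand for pooled animals or whether each library is a different set of mice, so the p-values reflect no more than the spread among these libraries, part of which could be technical. 1 bone marrow column of the glutamine arm matches no sample title in its numbers and is called the unnumbered library.

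Immediate early genes are switched on within minutes of a stimulus without the need for new protein synthesis. Growth factors, cytokines, stress and depolarisation reach them through kinases that activate factors already bound at their promoters, above all the serum response factor with its ternary complex partners and the cAMP response element binding protein. Their transcripts are short-lived. The encoded proteins either regulate the next set of genes (the Fos, Jun, Egr and Nr4a1 products) or shut the response down again (Dusp1, a phosphatase of mitogen-activated kinases, and Zfp36, called tristetraprolin, which marks AU-rich mRNAs for decay). In tissue they are also known to rise during dissection and cell isolation. The labels used here give no collection times, and the part of tissue handling in the levels below was not tested.

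Promoters are shown for 4 members as examples. All 4 windows shown hold the core element TGACG described below, which not every member does. No relation of these elements to the levels was tested. The RefSeq promoter table (GRCm38.p6) held 8 of the 10 members, all but Ier2 and Egr1, as windows from 250 bases before to 50 bases after a start. Capitals mark matches, on either strand, to the CArG box bound by serum response factor, the cAMP response element TGACGTCA, its core TGACG, the AP-1 site TGANTCA and the early growth response site GCGNGGGCG.
Fos, chr12:85473640-85473939, plus strand: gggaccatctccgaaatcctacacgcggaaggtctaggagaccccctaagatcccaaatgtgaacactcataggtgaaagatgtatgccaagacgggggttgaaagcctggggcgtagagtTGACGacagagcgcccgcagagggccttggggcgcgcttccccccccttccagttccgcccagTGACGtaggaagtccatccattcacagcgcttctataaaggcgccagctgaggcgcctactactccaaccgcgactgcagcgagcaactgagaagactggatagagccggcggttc
Egr2, chr10:67537619-67537918, plus strand: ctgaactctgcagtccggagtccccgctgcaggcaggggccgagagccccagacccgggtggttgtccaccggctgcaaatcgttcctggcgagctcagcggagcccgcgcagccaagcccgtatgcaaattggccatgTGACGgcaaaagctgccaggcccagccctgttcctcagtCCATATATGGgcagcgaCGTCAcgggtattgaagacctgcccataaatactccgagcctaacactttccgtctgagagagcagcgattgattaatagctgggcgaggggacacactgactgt
Nr4a1, chr15:101266596-101266895, plus strand: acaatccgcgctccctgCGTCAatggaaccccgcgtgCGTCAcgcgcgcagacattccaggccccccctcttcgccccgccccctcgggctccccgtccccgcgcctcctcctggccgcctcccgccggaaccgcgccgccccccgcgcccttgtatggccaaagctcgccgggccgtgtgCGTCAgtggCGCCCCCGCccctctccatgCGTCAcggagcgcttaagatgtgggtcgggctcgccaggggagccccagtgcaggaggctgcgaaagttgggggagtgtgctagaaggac
Dusp1, chr17:26508423-26508722, minus strand: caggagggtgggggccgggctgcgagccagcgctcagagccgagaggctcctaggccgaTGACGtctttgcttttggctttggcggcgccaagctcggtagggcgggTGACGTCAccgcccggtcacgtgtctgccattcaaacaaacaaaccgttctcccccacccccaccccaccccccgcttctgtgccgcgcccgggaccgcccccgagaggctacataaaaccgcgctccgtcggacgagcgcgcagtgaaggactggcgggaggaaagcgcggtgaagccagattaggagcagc
The core element TGACG was found in 6 of the 8 members (Fos, Fosb, Junb, Egr2, Nr4a1 and Dusp1), against 23.0% of the 27025 genes of the table. Nr4a1 held 4 of them in its window, and those of Fos lay 129 and 66 bases before the start. The CArG box was found in Egr2 and Zfp36, against 1.81% of genes, and the full element TGACGTCA, which overlaps 2 core elements, only in Dusp1, against 2.03%. The early growth response site was found in Fosb, Nr4a1 and Zfp36, against 6.27%, and TGANTCA in 0 of the 8, against 8.97%. Egr2 has 5 windows in the table, of which 3 overlapping ones hold the same number of matches, and 1 of those 3 is shown. A match is a description of these letters and no measure of binding. Bases outside the windows were not searched, so a member without a match here may hold the element farther away.

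Libraries were made by priming at the poly(A) tail and reading near the transcript end, so a count needs no correction for length and levels of different genes can be set beside each other. Adipose libraries held 35871168 to 59529238 counts and bone marrow libraries 13970788 to 37984603. Adipose libraries had 11361 to 14469 genes at 100 or more counts and bone marrow libraries 1755 to 7323. In bone marrow, 263 of the 10376 genes that reached 100 counts in any library did so in all 9, which is 2.53%, against 48.6% in adipose. Defining markers were checked against the tissue labels and only partly told the tissues apart. All 8 adipose progenitor and stroma markers reached 100 counts in all 9 adipose libraries, as did 4 of 6 adipocyte markers (Adipoq, Plin1, Fabp4 and Lpl). In bone marrow, 4 of 9 marrow stroma and osteoblast markers (Cxcl12, Bglap, Ibsp and Spp1) and 3 of 8 neutrophil markers (S100a8, S100a9 and Ngp) did so, and Sp7 was at 0 in at least 1 library. The same 3 neutrophil markers and Cxcl12 also reached 100 counts in all 9 adipose libraries, and Fabp4 and Lpl in all 9 bone marrow libraries. By summed CPM, neutrophil markers ran from 2699 to 54234 in bone marrow and from 49.6 to 284.7 in adipose, and marrow stroma and osteoblast markers from 2962 to 13869.7 and from 266 to 661. The sum of the 8 adipose progenitor and stroma markers went against its name. It was 52015 to 234488 in bone marrow and 22108 to 29679 in adipose. That list includes the matrix genes Dcn and Col1a1, the only 2 at 100 counts in all 9 bone marrow libraries. Dpp4 reached 100 counts in no bone marrow library, so the sum does not speak for each marker. In such mixed samples, fewer cells of a type and less RNA per cell cannot be told apart.

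All 10 members were abundant in every adipose library. Together they took 0.413% to 0.903% of the counts in the HFD libraries and 0.452% to 0.675% in the glutamine libraries. By mean level over the 9 adipose libraries, in counts per 1000000 counts of the library (CPM), the order was Egr1 at 1606 ± 382 (SD, n = 9), Jun at 1537 ± 292, Junb at 889 ± 348, Dusp1 at 659.7 ± 225, Fos at 543 ± 137, Fosb at 195 ± 66.8, Ier2 at 163 ± 105, Zfp36 at 158 ± 72.1, Nr4a1 at 135 ± 146 and Egr2 at 71.5 ± 21.5. Of neighbours in this order, only Fos and Fosb had ranges that did not overlap. Jun was above Junb in 9 of 9 libraries and Junb above Dusp1 in 8 of 9, while Egr1 was above Jun in 5 of 9.

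**Figure D1:**
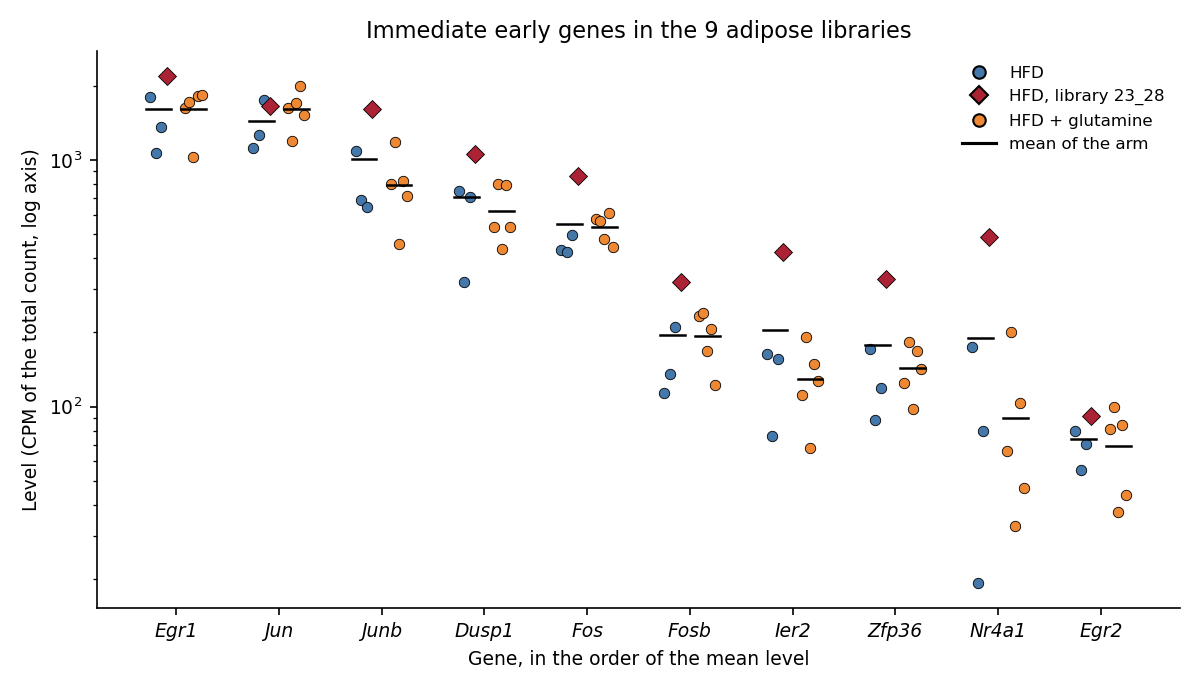
Level of each immediate early gene in the 9 adipose libraries, in CPM of the total count on a log axis, with the 4 HFD libraries to the left and the 5 glutamine libraries to the right of each gene and the mean of an arm as a line. The HFD library 23_28, drawn as a diamond, was the highest of the 9 for 8 of the 10 genes.

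The Fos family members bind DNA as partners of Jun proteins in the AP-1 factor. Fos (chromosome 12, 85473890 to 85477273, plus strand, GRCm38) stood at 432, 422, 498 and 859 CPM in the HFD libraries 1_3, 5_11, 14_17 and 23_28. In the glutamine libraries 4_6, 10_12, 13_15, 18_20 and 25_27 it stood at 579, 565, 479, 612 and 442 CPM. Library 23_28 was the highest, the other 3 HFD libraries lay within or just below the glutamine range, and the arms overlapped. The log2 fold change, glutamine over HFD, was -0.07 ± 0.220 (SE, edgeR quasi-likelihood, adjusted p = 1.00). Fosb (chromosome 7, 19302696 to 19310051, minus strand) read 114, 136, 210.1 and 322 CPM in the HFD libraries. It read 233, 239.9, 169, 206 and 123 CPM in the glutamine libraries, which lay inside the HFD range (-0.03 ± 0.295, adjusted p = 1.00).

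The Jun family members are the partners of Fos proteins in AP-1. Jun (chromosome 4, 95049034 to 95052222, minus strand) was the steadiest member over all 9 libraries, though not without HFD 23_28. It read 1116, 1258, 1746 and 1656 CPM in the HFD libraries in the same order. Its glutamine libraries read 1629, 1196, 1712, 1997 and 1528 CPM, the highest being 18_20. It was the one member with a positive fitted value, 0.14 ± 0.186 (log2 ± SE, adjusted p = 1.00). Junb (chromosome 8, 84974484 to 84978718, minus strand), which often opposes Jun, read 1088, 687, 644 and 1605 CPM in HFD libraries. It read 799, 1184, 457, 822 and 712 CPM in glutamine libraries, so the arms overlapped (-0.37 ± 0.294, adjusted p = 1.00). Jun overlaps Junos and Junb overlaps Prdx2 on the opposite strand. The strand setting of the counting is not given in the sources used here, so their reads cannot be told apart. Junos had 1081 counts in all 9 adipose libraries together and Prdx2 67476. In the 9 bone marrow libraries together Junos had 1 and Prdx2 135449, so the limit holds for the bone marrow values of Junb too.

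The Egr genes encode zinc finger factors. Egr1 (chromosome 18, 34859823 to 34864984, plus strand) read 1795, 1069.8, 1359.5 and 2191 CPM in the HFD libraries. The glutamine libraries read 1631, 1722, 1030.0, 1811 and 1841 CPM, with 13_15 well below the other 4 (-0.02 ± 0.223, adjusted p = 1.00). Egr2 (chromosome 10, 67535475 to 67542188, plus strand) read 79.4, 55.5, 70.3 and 91.6 CPM in HFD libraries. In the glutamine libraries it read 81.5, 99.4, 37.3, 84.4 and 44.0 CPM, and 13_15 and 25_27 were the lowest of all 9 (-0.12 ± 0.302, adjusted p = 1.00). Nr4a1 (chromosome 15, 101254269 to 101274795, plus strand), an orphan nuclear receptor, varied most. It read 175, 19.4, 79.8 and 489 CPM in HFD libraries and 66.3, 201, 32.9, 103 and 46.7 CPM in glutamine libraries. Its highest HFD library stood 25.2 times above its lowest (-1.11 ± 0.691, unadjusted p = 0.13 from edgeR, adjusted p = 1.00). Ier2 (chromosome 8, 84661331 to 84662852, minus strand), a nuclear protein induced with the others, read 164, 75.9, 156 and 422 CPM in HFD libraries. It read 111, 192, 67.9, 148 and 127 CPM in glutamine libraries (-0.69 ± 0.403, unadjusted p = 0.111 from edgeR, adjusted p = 1.00).

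The 2 feedback genes had the same shape. Dusp1 (chromosome 17, 26505590 to 26562128, minus strand) read 752, 319.9, 705 and 1063 CPM in HFD libraries and 534, 797, 438, 794 and 536 CPM in glutamine libraries (-0.22 ± 0.284, adjusted p = 1.00). Its annotated span overlaps Ergic1 on the opposite strand, which had 109509 adipose and 10554 bone marrow counts, and Gm8225, which had 89 and 1. On the same strand it overlaps AC122252.4 and AC122252.1, which are not among the counted gene names. Zfp36 (chromosome 7, 28376784 to 28380253, minus strand) read 172, 88.6, 119.6 and 329 CPM in HFD libraries and 125, 183, 97.7, 168 and 143 CPM in glutamine libraries (-0.33 ± 0.328, adjusted p = 1.00). For both genes the HFD arm held the highest and the lowest library, and the glutamine arm lay between them. Zfp36 overlaps Gm44710 on the opposite strand, which is not among the counted gene names either.

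No member was called for glutamine in adipose. Of 15114 genes tested, 0 were called at an adjusted p under 0.05 (edgeR), that is 0%, and 0 of the 10 members were, while 624 genes and 0 members had an unadjusted p under 0.05. DESeq2 called 31 genes, none of them a member. The arms did not overlap in CPM for 0 of 10 members, against 1.66% of all genes tested. The members' median log2 fold change was -0.17 with 9 of 10 negative, beside -0.02 over all genes. These negative values rested on 1 library. Without HFD library 23_28 the value was -0.04 for Nr4a1, -0.05 for Ier2, -0.05 for Junb and 0.00 for Egr2. It was above 0 for the others, at 0.05 for Dusp1, 0.15 for Zfp36, 0.17 for Egr1, 0.21 for Jun, 0.23 for Fos and 0.33 for Fosb.

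**Figure D2:**
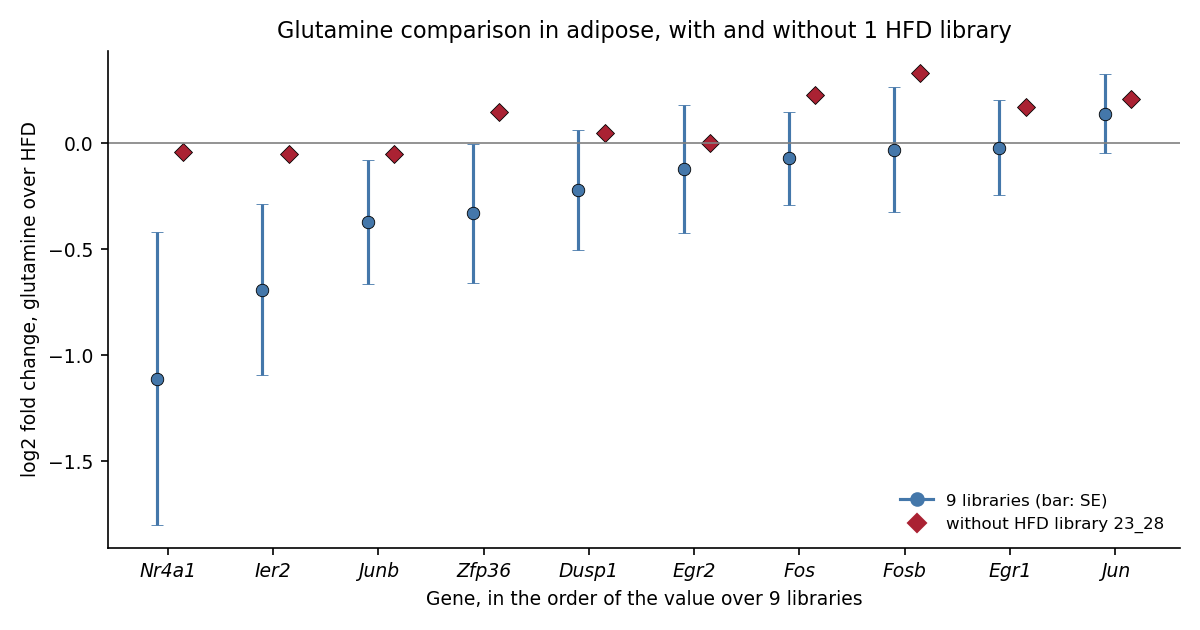
Log2 fold change of each member in adipose, glutamine over HFD, fitted over 9 libraries (circles, bars are 1 SE) and over 8 libraries without HFD library 23_28 (diamonds). Nr4a1 moved from -1.11 to -0.04 and Ier2 from -0.69 to -0.05, and no value passed the test in either fit.

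Members rose and fell together across the adipose libraries, apart from Jun. On log2 CPM over 9 libraries, which share strain, sex, HFD, tissue and protocol and, within an arm, the treatment, the 45 pairs of members had a Pearson r from -0.34 to 0.96 with a median of 0.71, and 39 were above 0. Junb, Egr1, Ier2, Nr4a1, Dusp1 and Zfp36 formed a tight set, chosen after these values were seen, with r from 0.75 to 0.96 over its 15 pairs. The closest pair was Nr4a1 and Dusp1 at 0.96, followed by Ier2 and Zfp36 at 0.95. Fos and Fosb had an r of 0.90. Jun was near 0 or below with all members except Fos and Fosb, at 0.43 each, and Dusp1 at 0.08, and its value with Junb was -0.34. Library 23_28 was highest for 8 members. HFD 5_11 and glutamine 13_15 were each lowest for 4, and HFD 1_3 for 2. Without 23_28 the 45 pairs ran from -0.67 to 0.95, with a median of 0.56, and the tight set, which was chosen for its high r, from 0.59 to 0.95, with a median of 0.81. Without 23_28 and 5_11, the 2 libraries farthest from the median of the members' mean, the 45 pairs ran from -0.72 to 0.93, with a median of 0.56, and the tight set from 0.58 to 0.93, with a median of 0.84. Jun's median r with the other 9 was -0.02 over all 9 libraries and -0.39 without those 2.

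Spread between adipose libraries separated the members further. The coefficient of variation was 109% for Nr4a1, 64.7% for Ier2, 45.5% for Zfp36 and 39.2% for Junb. It was 34.3% for Fosb, 34.1% for Dusp1, 30.1% for Egr2, 25.2% for Fos, 23.8% for Egr1 and 19.0% for Jun. The median was 51.3% over all tested genes and 23.8% over the 3110 genes at an average log2 CPM of 6 or more. Nr4a1 and Ier2 were above the median of all tested genes over these 9 libraries. All members but Jun and Egr1 were above the median at a log2 CPM of 6 or more, and Egr1 was level with it. Without HFD 23_28, a setting added after the data were seen, Nr4a1 stood at 73.0% and Ier2 at 33.3%. The median was then 46.5% over all tested genes, so the place of Ier2 above that median rested on that library. At a log2 CPM of 6 or more it was 21.5%, and all members but Jun and Fos stayed above it, Egr1 narrowly at 21.8%. The coefficient of variation also fell by more than 1.5 times for Fos, to 14.5%, and for Zfp36, to 25.7%. Fos was then the steadiest member, below Jun at 20.2%.

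Other lists moved in library 23_28 as well. The summed CPM of 12 macrophage markers, of which 10 reached 100 counts in all 9 adipose libraries, was 1932 there, the highest of 9. It ran from 707 to 1932 in HFD libraries and from 409.5 to 806 in glutamine libraries, and Fcgr1 was at 0 in 1 library. The 6 B and plasma cell markers summed to 3857 there, also the highest, with HFD libraries from 606 to 3857 and glutamine libraries from 228 to 1302. Cd79a, a chain of the B cell receptor, was at 0 in all 9 adipose libraries, while Ighm and Jchain reached 100 counts in all 9. The 6 T and NK cell markers summed to 187, the highest, with ranges of 72.7 to 187 and 32.2 to 75.9. The 8 endothelial markers, all at 100 counts in all 9 libraries, summed to 474 there, the lowest, with ranges of 474 to 1375 and 773 to 1911. The 8 mural markers summed to 521, also the lowest, with ranges of 521 to 883 and 549 to 1309. Over the 9 libraries, r with the members' mean was 0.48 for the macrophage sum, 0.75 for the B and plasma cell sum, 0.36 for the T and NK cell sum, -0.78 for the endothelial sum and -0.50 for the mural sum. The part of these cell types in the members' levels was not tested.

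Heat shock genes, which tissue handling also raises, had an r of 0.32 between their CPM sum and the members' mean over the 9 libraries. Their sum over 11 genes was 8286 CPM in 23_28, the second highest of 9, in a range of 5913 to 8426. Glutamine library 13_15, lowest for 4 members, had 8248 CPM. Hspa1b, an inducible heat shock gene with a near-identical copy in Hspa1a, was among the genes most like the members, with an r of 0.97. The sum therefore does not speak for each gene of the list. The part of tissue handling in these values was not tested.

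The genes most like the members were found by the Pearson r of their log2 CPM with the members' mean over the 9 adipose libraries, among 7563 candidates. The 6 highest were Pabpc1 (r = 0.97, rho = 0.92), which encodes the poly(A) binding protein, Hspa1b (0.97, 0.92), the annexin gene Anxa1 (0.96, 0.92), the hyaluronan synthase gene Has1 (0.96, 0.95), the junction protein gene Jam3 (0.96, 0.92) and Edem3 (0.96, 0.83), which acts on misfolded glycoproteins. All 6 were highest in library 23_28. Has1 ran from 9.03 to 169 CPM and Anxa1 from 92.0 to 518. Without library 23_28 their r was 0.90 to 0.96. None of the 6 is in the list of 48 other early response genes. Of the 43 listed genes with enough counts the median r was 0.40, with 12 above 0.7, beside a median of -0.04 and 594 above 0.7 among the candidates.

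In bone marrow the members fell into 2 kinds. Fos, Jun, Junb and Egr1 had at least 100 counts in all 9 libraries, which 2.53% of genes reaching that count anywhere did. Fos read 877, 525, 332 and 791 CPM in the HFD libraries 1_3, 5_11, 14_17 and 23_28. In the glutamine libraries 4_6, 10_12, unnumbered, 18_20 and 25_27 it read 225, 293, 242, 627 and 400.0 CPM. Most glutamine libraries were below the HFD libraries, but 18_20 and 25_27 overlapped them. Jun read 1066, 1242, 186 and 877 CPM in HFD libraries and 388, 659, 729.7, 737 and 539.6 in glutamine libraries. Junb read 852, 519, 756 and 176 CPM, and then 157, 351, 722, 387 and 323. For both, 1 HFD library (14_17 for Jun, 23_28 for Junb) was near the bottom and another at the top. Egr1 spanned the widest range of the 4, at 1368, 619, 244 and 54.2 CPM in HFD libraries and 561, 1032, 1336, 515 and 199 in glutamine libraries.

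The other 6 members were present in some bone marrow libraries and nearly absent from others. Of their 54 values, 28 were under 100 counts, of which the highest was 90, and 25 were at 686 counts or more. Only 1 value, 272 counts of Dusp1 in HFD 1_3, lay between. The libraries at 100 counts or more numbered 6 for Fosb, 5 for Dusp1, 5 for Zfp36, 4 for Nr4a1, 3 for Egr2 and 3 for Ier2. Ier2 had 7019 counts in HFD 5_11 and 9 to 23 in the other 3 HFD libraries, while in the glutamine arm it had 4441 in 25_27, 997 in 18_20 and 10 to 19 in the others. Zfp36 had 9596 counts in HFD 14_17 and 11 in HFD 23_28. Nr4a1 and Dusp1, the closest pair in adipose, were apart in HFD 14_17, where Nr4a1 had 4563 counts and Dusp1 73. Among the 4 members present in all 9 bone marrow libraries, 5 of 6 pairs had an r above 0, with a median of 0.41. The highest was Fos with Jun at 0.71 and the lowest Fos with Egr1 at -0.31, and Junb with Egr1 was at 0.47.

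**Figure D3:**
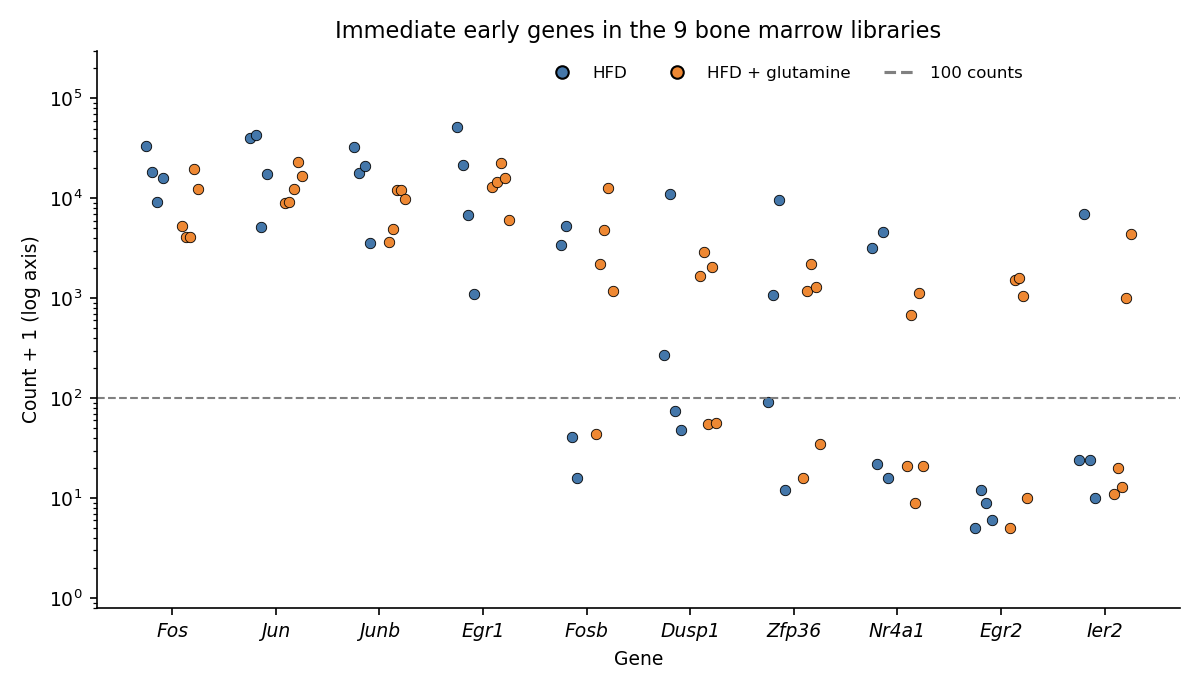
Count of each member in the 9 bone marrow libraries, plus 1, on a log axis, with HFD libraries to the left and glutamine libraries to the right of each gene and a dashed line at 100 counts. Fos, Jun, Junb and Egr1 stayed above the line in all 9 libraries, and the other 6 genes split into values of 90 or fewer and, but for 1 value of 272, values of 686 or more.

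The number of members at 100 counts or more was 7, 8, 6 and 4 in the HFD libraries and 5, 9, 7, 10 and 6 in the glutamine libraries, in the orders above. The numbers of all genes at that count were 3987, 4257, 2244 and 1755 in HFD and 3636, 3013, 1831, 7323 and 3683 in glutamine libraries. Library 18_20 had the most of both and HFD 23_28 the fewest of both. In adipose all 10 members passed in all 9 libraries. The same was so for 43 of 48 other early response genes in adipose, while in bone marrow 3 of the 48 did (Klf4, Nfkbia and Zfp36l1, all chosen here by that count) and 39 did in some. The part of the number of cells or molecules behind a library in this pattern was not tested.

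Between the arms of bone marrow no member was called. Of 6041 genes tested, 8 were called (edgeR, adjusted p under 0.05), which is 0.132%, and 0 of the 9 members tested. Egr2 did not pass the count filter. Among all genes tested 1127 had an unadjusted p under 0.05, and 0 members. The arms overlapped for all 10 members, and 3.77% of genes tested had arms without overlap. Values were -1.55 ± 1.56 for Fos, -0.86 ± 1.40 for Jun, -0.77 ± 1.55 for Junb and 0.55 ± 1.48 for Egr1 (log2, glutamine over HFD ± SE). They were 1.71 ± 2.32 for Fosb, -0.77 ± 2.32 for Ier2, -2.76 ± 2.44 for Nr4a1, -0.45 ± 2.34 for Dusp1 and -1.34 ± 2.25 for Zfp36, with edgeR adjusted p from 0.648 to 0.959 over the 9. Standard errors above 1 leave changes of several fold undetectable here. Single libraries set the sign of 4 members. Ier2 moved to 4.83 and Dusp1 to 3.42 without HFD 5_11, Zfp36 to 2.54 without HFD 14_17 and Egr1 to -0.29 without the unnumbered library.

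Egr2 was the member with the clearest split between the arms in bone marrow. It had 4, 11, 8 and 5 counts in the HFD libraries, and 4, 1512, 1591, 1055 and 9 in the glutamine libraries. So 3 of 5 glutamine libraries held it at 33.8 to 108 CPM and 0 of 4 HFD libraries did, but glutamine libraries 4_6 and 25_27 were as low as the HFD ones. In a fit of all 18 libraries the glutamine effect on Egr2 differed between tissues by -7.52 ± 2.13 (log2, adipose minus bone marrow ± SE, edgeR adjusted p = 0.0432), at a gene for which 4 libraries of 1 arm hold 11 counts or fewer. It was the only member called, where 11.9% of 15203 genes were called. The call held in 9 of 27 alternative fits, with adjusted p from 0.000585 to 1.00, and was lost with relative log expression (0.0546) and upper-quartile factors (0.0728). It was also lost without any 1 adipose or HFD bone marrow library, with adjusted p of 0.060 to 0.077. The other 9 members ran from -1.51 ± 1.83 for Fosb to 1.24 ± 2.19 for Nr4a1, with edgeR adjusted p of 0.526 or more.

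Levels in the 2 tissues overlapped for all 10 members, while 16.2% of the 15203 genes tested had tissues without overlap in CPM. Fos averaged 543 ± 137 CPM in adipose and 479 ± 241 in bone marrow (SD, n = 9 each), and the range of adipose, 422 to 859 CPM, lay within that of bone marrow, 225 to 877 CPM. Jun averaged 1537 and 714 CPM, Junb 889 and 471, and Egr1 1606 and 659. The 6 patchy members averaged 26.4 CPM (Egr2) to 126 CPM (Fosb) in bone marrow and were thus lower there by mean CPM. These levels refer to library totals. The tissue of a library also fixed its isolation and its count table, and these cannot be told apart.

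With TMM factors, which rescale libraries by a trimmed mean of gene ratios, Fos was called lower in adipose by -1.64 ± 0.453 (log2 adipose minus bone marrow ± SE, edgeR adjusted p = 0.00529), as were 11.2% of genes tested. Egr2 was called higher in adipose at 2.45 ± 1.00 (adjusted p = 0.0454), as were 40.5% of genes. Egr2 did not pass the count filter in bone marrow alone and entered this fit through its adipose counts. The other 8 were not called, from -0.97 ± 0.495 for Junb to 1.41 ± 0.935 for Dusp1. Directions depended on the scaling. The TMM factors were 1.54 to 2.21 in adipose libraries and 0.322 to 0.941 in bone marrow libraries. Without scaling factors, a setting added after the data were seen, Fos was at 0.20 (adjusted p = 0.715) and all 10 members were above 0. With relative log expression factors all 10 were below 0, 8 of them called, and with upper-quartile factors all 10 were below 0, 7 of them called. The median over all genes tested was also below 0 there, at -1.94 and -0.89. More genes were called lower than higher in both fits, as counted in the last section. Such counts, and those of the lists below, are thus no result about the members or lists alone. No direction between the tissues can therefore be given for any member on its own.

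The members were also set against all genes of the same fit. A scaling factor shifts all genes of a library alike, so a place relative to the median changes little between scalings by construction and is given only as a description. The count filter kept 15203 genes here, beside 15114 in adipose alone and 6041 in bone marrow alone. Many genes behind the median thus entered through their adipose counts, while 9 of the 10 members also passed in bone marrow. A place below the median can follow in part from that filter. The median log2 difference over all genes tested stood at 1.43 for TMM, -1.94 for relative log expression, -0.89 for upper-quartile factors and 3.17 without factors. Fos, Fosb, Jun, Junb, Egr1, Ier2, Nr4a1 and Zfp36, 8 of 10, were below that median in all 4 fits. With TMM factors they lay 3.06 (Fos) to 1.08 (Nr4a1) below it. Egr2 was above it in 3 of the 4 fits, and Dusp1 lay within 0.42 of it in all 4. 1 library weighed on 2 members. Without bone marrow HFD 5_11 Dusp1 was called higher in adipose at 3.75 (adjusted p = 0.0018) and Ier2 at 3.33 (adjusted p = 0.0207).

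**Figure D4:**
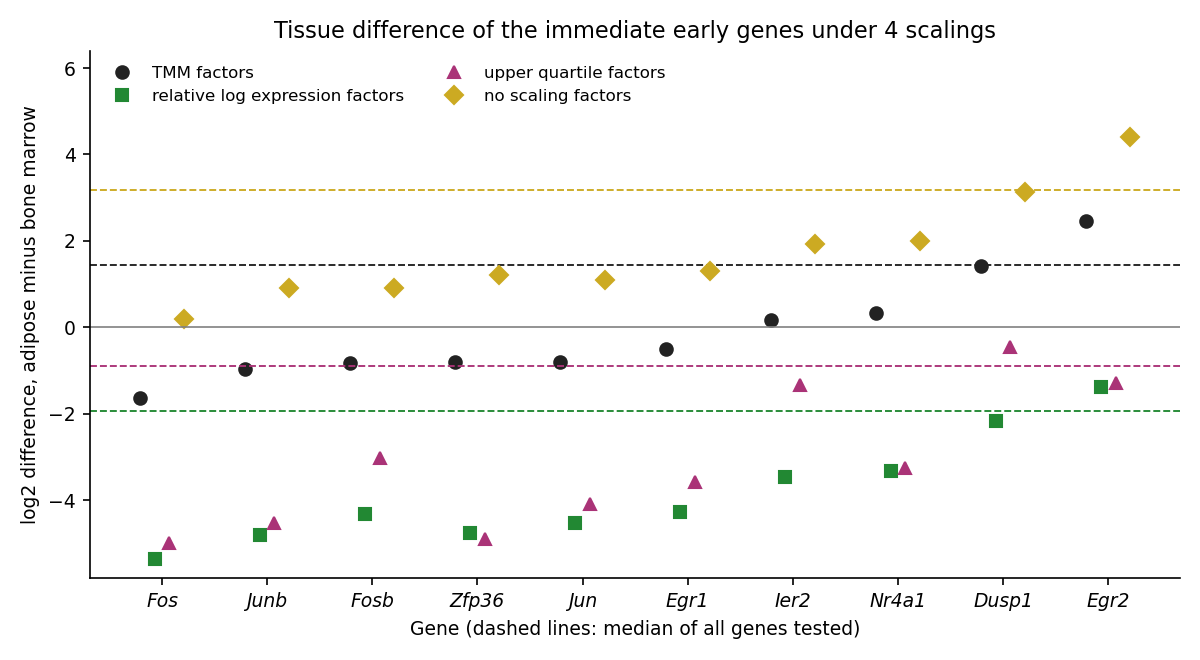
Log2 difference of each member, adipose minus bone marrow, in 4 fits that differ in the scaling factors, with dashed lines at the median of all genes tested in each fit. Fos was lowest of the 10 in all 4 fits, and 9 of 10 lay below the median of all genes in each fit.

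No other early response gene was called in adipose either. Of 48 other early response genes, 47 were tested in the glutamine comparison and 0 were called, with a median of -0.15 and 33 negative, beside -0.02 over all genes. The 4 with the smallest p were the phosphatase gene Dusp2 (-1.47 ± 0.516), Ier3 (0.45 ± 0.184), the clock-linked repressor gene Bhlhe40 (-0.57 ± 0.274) and Arl4d (-1.70 ± 0.993), all with an edgeR adjusted p of 1.00. Dusp2 read 28.3 to 177 CPM in HFD and 15.4 to 51.1 in glutamine libraries. Ier3 read 622 to 948 and 903 to 1398 CPM. Both overlapped between arms.

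In bone marrow 38 of the 48 were tested for glutamine and 0 were called, with a median of -0.87 beside -0.22 over all genes. In the test of the difference of effects 2 of 47 were called higher (Cebpb and Tob1) and 1 lower (Phlda1), all 3 named here after their values were seen, where 11.9% of all genes were called. That test called 0 genes once upper-quartile or relative log expression factors were used. Between tissues the TMM fit called 9 of 47 higher in adipose and 0 lower, beside 40.5% and 11.2% of all genes tested. The relative log expression fit called 5 and 27, the upper-quartile fit 6 and 19, and the fit without scaling factors 22 and 0. Arl4d, Egr4 and Egr3 had the largest called differences. None of them passed the count filter in bone marrow, so they entered this fit only through their adipose counts. A call could thus only be higher in adipose, and its size rests on bone marrow counts near 0. Arl4d had 31 to 1855 counts in adipose libraries and 0 or 1 in bone marrow libraries. Egr4 had 0 to 749 counts in adipose and 0 to 2 in bone marrow, and Egr3 0 to 351 and 0 or 1. Egr3 and Egr4 were thus near 0 in some adipose libraries too, and with DESeq2 neither was called between tissues (adjusted p = 0.277 and 0.157).

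Genes upstream of the members, 19 kinases and transcription factors, showed 0 calls in adipose with a median of -0.15. The smallest p were those of the stress kinase gene Mapk14 (-0.56 ± 0.249, unadjusted p = 0.0406) and the ternary complex factor gene Elk4 (-0.68 ± 0.359, unadjusted p = 0.0795), each with an edgeR adjusted p of 1.00. In bone marrow 1 of 15 tested was called, the serum response factor coactivator gene Mkl1, named after its value was seen, which was lower with glutamine (edgeR adjusted p = 0.0498), though with relative log expression factors 0 genes were called in that comparison. Between tissues the TMM fit called 2 of 19 higher in adipose and 1 lower, and the relative log expression fit 2 and 13. Of 11 heat shock genes 0 were called for glutamine in either tissue, with medians of -0.10 in adipose and -0.44 in bone marrow. Hsph1 (-0.44 ± 0.231) and Hspa1b (-0.64 ± 0.389) had the smallest p in adipose, with an edgeR adjusted p of 1.00. Between tissues the TMM fit called 3 higher and 2 lower, and the relative log expression fit 0 and 8.

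Transcripts that tristetraprolin, the Zfp36 product, is known to destabilise had mostly negative values in adipose, none of them called. Of 12 in adipose 0 were called, 11 were negative, and their median was -0.61. Il1b, an inflammatory cytokine gene, read 5.80 to 67.7 CPM in HFD and 3.81 to 15.4 CPM in glutamine libraries (-2.0 ± 0.674, unadjusted p = 0.0103). Tnf read 15.9 to 81.9 and 4.26 to 27.1 CPM (-1.17 ± 0.584), and both had an edgeR adjusted p of 1.00. Zfp36 itself stood at -0.33 ± 0.328. In bone marrow 7 were tested and 0 called, with a median of 0.67. Between tissues the TMM fit called 7 of 11 higher in adipose and 2 lower, and the relative log expression and upper-quartile fits 5 and 2 each. The test of the difference of effects called 1 of 11 (Ccl3), 2 of 19 upstream genes (Mkl1 and Elk4) and 0 of 11 heat shock genes, where 11.9% of all genes were called. Under upper-quartile or relative log expression factors it called 0 genes, and the 3 genes are named after their values were seen. Macrophages express several of these genes, and the macrophage marker sums given above were 707 to 1932 CPM in HFD and 409.5 to 806 CPM in glutamine libraries. The sum of 1932 CPM was that of HFD library 23_28. The part of macrophages in the values of these transcripts was not tested.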

How the data were processed

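Per the labels' protocols, a 3′ end kit was run on 30 ng of total RNA and only read 1 was used. The authors deposited whole-number read counts per gene. The tools, per the submitters' processing notes, include FastQC 0.12.1, STAR 2.7.10b and HTSeq 0.11.3, with the build GRCm38. No source used here gives the annotation or the strand setting, and no molecular identifiers are named. Members were matched by symbol to GENCODE M21.

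Each tissue's 9 libraries were tested with edgeR 4.0.16 in R 4.3.3 (filterByExpr, TMM factors, quasi-likelihood F test, two-sided, Benjamini-Hochberg over all genes tested, threshold 0.05). Tissue and the difference of effects were tested over 18 libraries in 4 groups. CPM used library totals, and log2 CPM for correlations used TMM factors and a prior count of 2. A gene at 100 counts was taken as present. Alternatives were other factors, filters (none, or a minimum of 50 counts), DESeq2 1.42.0, limma 3.58.1 (voom), a replicate block, a joint fit, and leaving out each library. The scripts were tested on simulated data.

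The members and gene lists were chosen with earlier results of these data known. All 10 members are named in every comparison. Of the other early genes, the 4 with the smallest p in adipose and up to 3 called per direction between tissues with the largest change are named, of the other lists the 2 with the smallest p in adipose, and for likeness the 6 highest r at an average log2 CPM of 4 or more. Lists were other early response genes, upstream kinases and factors, heat shock genes, tristetraprolin targets and cell type markers.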

Additional observations from a re-analysis of the deposited data

Results flagged for a closer look

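In 5 of the 40 sets formed by a member and a group, 1 library stood apart from the rest of its group. The rule was a Dixon test on CPM, which compares the gap to the next value with the range. Its chance rate of about 1 in 20 sets assumes normally distributed values. The bone marrow sets below belong to patchy members, with counts of 90 or fewer or, but for 1 value, of 686 or more. That rate does not hold for them. Egr1 in adipose glutamine library 13_15 was at 1030.0 CPM, with the next lowest at 1631 CPM. In bone marrow, Ier2 was at 202 CPM in HFD 5_11 against 0.821 CPM or less in the other HFD libraries, and at 144 CPM in glutamine 25_27 with the next highest at 32.0 CPM. Dusp1 was at 321 CPM in HFD 5_11 with the next at 7.16 CPM. Zfp36 was at 343 CPM in HFD 14_17 with the next at 30.9 CPM. The glutamine effect on Egr2 differed between tissues by -7.52 on the log2 scale (edgeR interaction test, adjusted p = 0.0432), from 3 glutamine bone marrow libraries with 1055 to 1591 counts.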

How the results depend on the processing

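All p-values below are from the named tool with Benjamini-Hochberg adjustment. Counts of called genes moved most in bone marrow. In adipose DESeq2 called 31 genes (28 higher, 3 lower), where edgeR called 0 with every library and 0 to 0 when 1 library was left out. In bone marrow, where 8 were called, the count was 3926 in a joint fit of 18 libraries, 202 without a count filter, 722 with DESeq2, 1 with limma-voom, and 0 with relative log expression factors, upper-quartile factors or the stricter filter. It ran from 0 to 19 when 1 library was left out. Between tissues limma-voom called 4463, where edgeR called 7858, and leaving out 1 library gave 7020 to 8473. For the difference of effects, with 1811 called, DESeq2 called 1061, limma-voom 3, and relative log expression or upper-quartile factors 0. Leaving out 1 library gave 0 to 2681. The cause of these moves was not tested. The higher and lower calls between tissues split 6150 and 1708 with TMM, 2465 and 6524 with relative log expression, 3222 and 5144 with upper-quartile factors, 8098 and 389 without factors and 2262 and 4160 with DESeq2.

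Library numbers recur in both tissues, but the labels do not explain them, so they were not taken as pairs in the main fits. The 8 pairs had correlations of -0.0275 to 0.0443 and a library correlated best with its own number in 1 of 8. Bone marrow libraries had an r of -0.475 to 0.149 with each other, against 0.666 to 0.902 in adipose. Each r within a tissue used only the genes present in either library of the pair. That choice leaves out genes low in both libraries and lowers r where many genes are present in only 1 of them. Values below 0 are thus no sign that bone marrow libraries oppose each other. With presence this patchy in bone marrow, the check of the numbers could not decide whether they are pairs. The replicate block on 16 libraries called 7499 genes between tissues and 0 for the difference of effects. The same 16 libraries without the block called 7191 and 0. With the block, Fos lost its tissue call (adjusted p = 0.0593) and Egr2 stood at -3.62 for the difference of effects. The block also reversed Fosb to 0.89, Egr1 to 0.14 and Zfp36 to 2.46 between tissues, and Egr1 to 0.16 and Dusp1 to -2.46 for the difference of effects. The same 16 libraries without it put Egr1 at 0.27 there. That setting and the one without scaling factors were chosen after seeing the data.

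Signs of members that were not called changed as follows, in log2 units. In adipose limma-voom gave 0.11 for Fos, 0.11 for Fosb and 0.08 for Egr1, upper-quartile factors 0.04 for Fosb and 0.04 for Egr1, and the joint fit -0.06 for Jun. Leaving out 1 library gave -0.18 to 0.23 for Fos, -0.22 to 0.33 for Fosb, -0.16 to 0.17 for Egr1, -0.28 to 0.04 for Egr2, -0.45 to 0.05 for Dusp1 and -0.55 to 0.15 for Zfp36. In bone marrow upper-quartile factors gave 0.34 for Junb and 0.97 for Zfp36, limma-voom -0.49 for Egr1, 0.50 for Ier2 and 0.68 for Dusp1, and relative log expression factors and DESeq2 each 0.26 for Dusp1. Leaving out 1 library gave -0.29 to 1.24 for Egr1, -3.06 to 4.83 for Ier2, -1.53 to 3.42 for Dusp1 and -2.67 to 2.54 for Zfp36.

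Between tissues, Fos stayed called lower in 24 of 27 alternatives, and lost the call without a count filter (adjusted p = 0.0664), with the block, and without scaling factors, where it stood at 0.20. Egr2 kept its call in 7 of 27, lost it in 14 of 18 fits without 1 library (adjusted p from 0.016 to 0.0745 over the 18) and stood at -1.38 with relative log expression factors, -1.38 with DESeq2 and -1.30 with upper-quartile factors. Without scaling factors Fosb was at 0.90, Jun at 1.09, Junb at 0.92, Egr1 at 1.31 and Zfp36 at 1.2. Relative log expression factors and DESeq2 each gave -3.47 for Ier2, -3.33 for Nr4a1 and -2.16 for Dusp1, and upper-quartile factors -1.34, -3.26 and -0.46. Limma-voom gave 0.99 for Fosb and 1.42 for Zfp36. Leaving out 1 library gave -0.62 to 0.03 for Egr1, -0.20 to 3.33 for Ier2, -0.25 to 1.32 for Nr4a1 and -1.09 to 0.89 for Zfp36. For the difference of effects, Ier2 was at 0.07 without a filter, Dusp1 at -2.15 with upper-quartile factors and -1.23 with limma-voom, and Zfp36 at -0.30 with limma-voom. Leaving out 1 library gave -0.11 to 1.22 for Junb, -1.23 to 0.41 for Egr1, -5.90 to 2.71 for Ier2, -3.62 to 1.41 for Dusp1 and -2.81 to 2.37 for Zfp36.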
